A study of Homo sapiens with 6 samples.

Results

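The vacuolar ATPase (v-ATPase), the Ragulator complex and the Rag GTPases were examined in HT29 cells, a human colorectal adenocarcinoma line, after knockdown of aldolase A (ALDOA). Members were chosen by symbol, as every symbol that starts with ATP6V or ATP6AP together with LAMTOR1 to LAMTOR5, RRAGA to RRAGD and SLC38A9. This gave 40 of the 28278 genes listed in the count tables, of which 35 were given a role by their symbol, 1 of them a pseudogene (ATP6AP1L), and 5 only share the prefix. HT29 cells treated with an siRNA against ALDOA (siALDOA, 3 libraries) were compared with HT29 cells treated with a scrambled siRNA (siControl, 3 libraries), and total RNA was taken after 48 h. The labels do not say whether the siRNA against ALDOA was 1 sequence or a pool, and the loss of ALDOA and any other effect of the siRNA cannot be told apart. The libraries are labelled as biological replicates without saying what was prepared separately, so the p-values measure the spread between these samples.

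The v-ATPase is a rotary proton pump that acidifies lysosomes and other organelles. Its cytosolic V1 sector hydrolyses ATP, and its membrane V0 sector carries protons through a ring of proteolipid subunits. On the lysosomal surface it contacts Ragulator, a scaffold anchored in the membrane by LAMTOR1, which holds the Rag GTPases that recruit mTORC1 when amino acids are present. Aldolase is thought to sense its substrate fructose-1,6-bisphosphate at the same site, where the v-ATPase and Ragulator can bind AXIN and LKB1, the kinase that activates AMPK. The question asked of the counts was whether the genes of this platform changed their mRNA level when ALDOA was lowered.

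The libraries held 27277538 to 33237914 counts on genes, and 15307 genes passed edgeR's filter on low counts. Ribosomal RNA genes took 7.71% to 13.1% of the siALDOA counts, highest in replicate 1, and 8.15% to 17.4% of the siControl counts, and their part in the results was not tested. Levels are given as CPM (counts scaled to 1000000 per library) with TMM normalization, a scaling that evens out library composition, and differences as log2 fold changes of siALDOA over siControl. ALDOA itself was at 283, 305 and 280 CPM after siALDOA and at 592, 637 and 667 CPM after siControl. The groups did not overlap, and the log2 fold change was -1.13 (standard error 0.060, edgeR adjusted p = 6.95e-11). The 8 epithelial markers were detected in every library, from CDX1 at 3.73 to 5.76 CPM to KRT8 at 4870 to 5790 CPM. KRT18 alone among them passed the test, with a log2 fold change of -0.28 (adjusted p = 0.0152), and its part in the results was not tested. PTPRC, CD3E, COL1A2, DCN, CDH5 and VWF, which mark blood cells, fibroblasts and endothelium, held at most 8 counts over the 6 libraries. CD68 was at 12.7 to 15.3 CPM and COL1A1 at 1.73 to 2.77 CPM, and neither passed the test between the groups (edgeR adjusted p = 0.941 and 0.572).

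Of the 40 members, 34 were tested and 3 passed an adjusted p of 0.05 in edgeR's quasi-likelihood test with Benjamini-Hochberg adjustment over all genes tested. ATP6V1B1 and ATP6V0D1 rose and LAMTOR1 fell. The 3 calls are 8.82% of the tested members, beside 9.64% of all genes tested, so the members were called about as often as other genes. By direction, 4.35% of all genes were called higher and 5.29% lower. The members' median log2 fold change was 0.04, against 0.0016 over all genes, with 20 members higher and 14 lower, and with library totals only these medians were 0.11 and 0.075. The siALDOA and siControl values did not overlap in 11 members, 7 of them above siControl and 4 below. Over all genes tested 27.7% showed no overlap, 13.1% above and 14.6% below. At the unadjusted threshold of 0.01 named in the study's methods, 3 members were higher and 1 was lower, where 12.5% of all genes passed it, 5.72% higher and 6.74% lower.

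**Figure D1:**
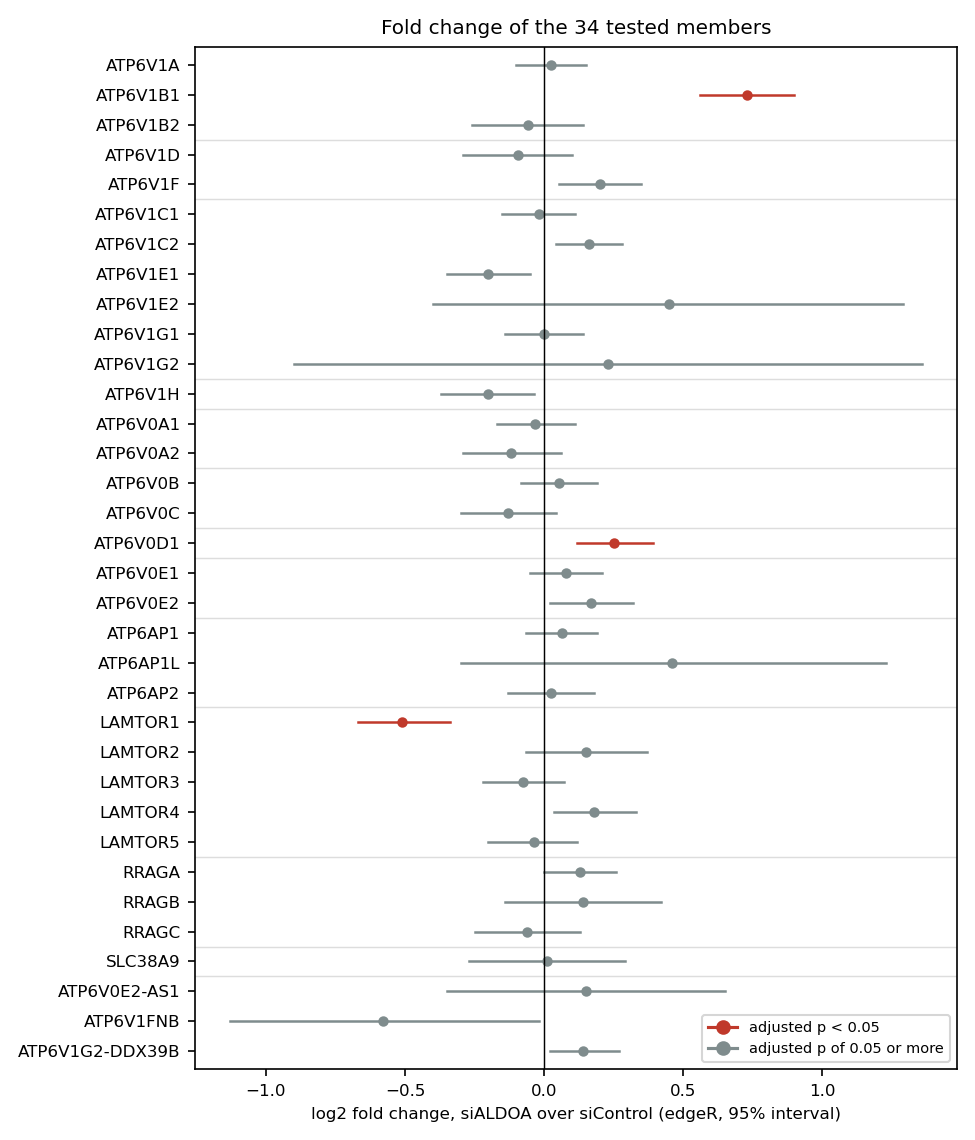
Log2 fold change of each tested member (x axis, siALDOA over siControl) with its 95% interval from edgeR, ordered by role from the V1 sector at the top to symbols that only share the prefix at the bottom; grey lines part the roles. The 3 members in red passed an adjusted p of 0.05, and most of the others lie close to 0, with wide intervals for the members of low count.

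The size of the changes that the libraries could still hold was read from the 95% intervals. In 27 of the 34 tested members the interval lay within 0.5 on the log2 scale on either side of 0, and in 10 members within 0.25. The fitted difference itself was under 0.2 in size in 25 members. The intervals were widest for ATP6V1G2, ATP6V1E2 and ATP6AP1L, the tested members with the lowest levels.

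The promoter sequences of the 3 called members are shown first, since genes of lysosomal biogenesis are known to be bound by TFEB, TFE3 and MITF at the E-box CACGTG, most of all where GT stands before it and AC after it, the palindrome of the CLEAR element. RRAGB is added because it carried the most E-boxes of the 28 members with a promoter entry. Each sequence is from RefSeq on GRCh38.p14, runs from 250 bases before the annotated start to 50 bases after it on the gene's own strand, and has the E-box in capitals, together with the neighbouring bases that complete the longer word TCACGTG on either strand or the CLEAR palindrome. LAMTOR1 is from chr11:72103248-72103547 on the minus strand, ATP6V0D1 from chr16:67481108-67481407 on the minus strand, ATP6V1B1 from chr2:70935650-70935949 on the plus strand and RRAGB from chrX:55717499-55717798 on the plus strand.
LAMTOR1: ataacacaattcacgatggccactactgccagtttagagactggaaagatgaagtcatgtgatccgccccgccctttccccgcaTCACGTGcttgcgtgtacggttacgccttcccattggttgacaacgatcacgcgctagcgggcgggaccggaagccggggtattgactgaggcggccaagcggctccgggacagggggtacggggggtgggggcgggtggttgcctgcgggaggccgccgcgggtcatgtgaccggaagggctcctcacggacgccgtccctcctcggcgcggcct
ATP6V0D1: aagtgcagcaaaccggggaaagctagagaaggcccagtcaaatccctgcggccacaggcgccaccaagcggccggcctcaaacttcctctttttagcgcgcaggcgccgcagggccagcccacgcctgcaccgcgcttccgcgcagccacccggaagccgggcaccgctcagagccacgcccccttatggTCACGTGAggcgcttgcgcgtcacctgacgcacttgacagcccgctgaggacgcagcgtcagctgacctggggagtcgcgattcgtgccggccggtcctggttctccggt
ATP6V1B1: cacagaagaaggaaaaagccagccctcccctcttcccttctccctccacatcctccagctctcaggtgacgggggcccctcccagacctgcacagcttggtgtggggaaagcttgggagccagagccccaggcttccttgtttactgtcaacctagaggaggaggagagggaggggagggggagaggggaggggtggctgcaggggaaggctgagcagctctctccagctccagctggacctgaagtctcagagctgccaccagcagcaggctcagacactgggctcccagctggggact
RRAGB: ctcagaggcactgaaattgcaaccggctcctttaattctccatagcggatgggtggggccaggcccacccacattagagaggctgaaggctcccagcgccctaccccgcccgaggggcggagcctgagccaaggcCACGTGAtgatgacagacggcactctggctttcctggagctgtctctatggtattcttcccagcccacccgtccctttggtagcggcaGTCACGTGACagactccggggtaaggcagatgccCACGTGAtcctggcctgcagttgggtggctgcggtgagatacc

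With the first transcribed base as position 1, CACGTG begins at -165 in the LAMTOR1 promoter, at -59 in that of ATP6V0D1 and at -115, -25 and 8 in that of RRAGB. The ATP6V1B1 window does not contain these letters.

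The V1 sector had 12 tested members, of which 1 was called. ATP6V1B1 (ENSG00000116039, chromosome 2 of hg38, 70935900 to 70965431, plus strand) encodes the B subunit isoform best known from acid-secreting cells of the kidney and inner ear. It was at 37.1, 36.9 and 36.2 CPM with siALDOA and at 22.6, 20.6 and 23.1 CPM with siControl. Every siALDOA library lay above every siControl library, and the spread within each group was small beside the gap. The fitted log2 difference was 0.73 (standard error 0.080, adjusted p = 2.29e-06), from 22.1 ± 1.35 to 36.7 ± 0.480 CPM (SD, n = 3). It lay between 0.68 and 0.80 and stayed called in all 14 alternative analyses. The exons of ATP6V1B1 share 63.1% of their bases with VAX2 on the same strand, and VAX2 held 91 counts over the 6 libraries against 5268 for ATP6V1B1.

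ATP6V1B2, the isoform of the B subunit used in most cells, was at 27.7, 23.6 and 22.4 CPM with siALDOA and at 27.4, 23.5 and 25.9 CPM with siControl. These ranges overlapped, and the log2 fold change was -0.057 (95% interval -0.26 to 0.14, adjusted p = 0.771). Counted against each other, ATP6V1B1 took 57.2%, 61.0% and 61.7% of the B subunit counts with siALDOA and 45.3%, 46.8% and 47.2% with siControl. The share was therefore higher in 3 of 3 siALDOA libraries, at 60.0% ± 2.41 against 46.4% ± 1.03 (SD, n = 3), a difference of 13.6 percentage points. The exact two-sided permutation test gave p = 0.1, the smallest that 3 libraries against 3 allow, and 0.233 after adjustment over the 7 shares compared. Per kb of the main transcript the share was 69.2% with siALDOA and 56.5% with siControl. These shares rest on the counts behind the call of ATP6V1B1 and are no separate evidence of its rise.

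ATP6V1A, the catalytic subunit that alternates with B in the hexamer, did not pass the test. It was at 149, 136 and 138 CPM with siALDOA and at 140, 139 and 137 CPM with siControl. The groups overlapped, with a log2 fold change of 0.025 (95% interval -0.10 to 0.15, adjusted p = 0.841).

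In the central rotor, ATP6V1F was at 66.9, 79.4 and 77.4 CPM with siALDOA and at 67.5, 63.7 and 63.6 CPM with siControl. The siALDOA replicate 1 library fell within the siControl range and the other two lay above it. The log2 fold change was 0.20 (95% interval 0.054 to 0.35, adjusted p = 0.0789), and without siALDOA replicate 1 it was 0.27 (adjusted p = 0.00653), while without siALDOA replicate 2 it was 0.15 (adjusted p = 0.283). Of its exon bases, 20.6% lie opposite KCP, which held 216 counts against 12599 for ATP6V1F. ATP6V1D, the rotor shaft, had a log2 fold change of -0.094 (adjusted p = 0.610).

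The peripheral stalks, built from the C, E and G subunits, had 6 tested members and none was called. ATP6V1C2, a C subunit isoform of epithelia, was at 155, 156 and 152 CPM with siALDOA and at 132, 143 and 139 CPM with siControl. All siALDOA values lay above all siControl values, but the log2 fold change of 0.16 (95% interval 0.043 to 0.28) did not pass the threshold (adjusted p = 0.0812). PDIA6 on the opposite strand covers 29.5% of the exon bases of ATP6V1C2 and had a log2 fold change of 0.17 (adjusted p = 0.0578). Since the strand setting of the counting is not given in the sources used here, reads of these genes cannot be told apart where they overlap.

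ATP6V1E1, the E subunit of most cells, was at 44.5, 45.3 and 41.0 CPM with siALDOA and at 46.9, 53.1 and 50.4 CPM with siControl. The groups did not overlap, and the log2 fold change was -0.20 (95% interval -0.35 to -0.052, adjusted p = 0.0845). ATP6V1E2, its testis isoform, held 30, 22 and 74 counts after siALDOA and 37, 27 and 38 after siControl, with siALDOA replicate 3 above all other libraries. Its log2 fold change was 0.45 (standard error 0.41, adjusted p = 0.561). Of its exon bases, 4.58% lie opposite RHOQ, which held 10227 counts against 228 and had a log2 fold change of -0.56. ATP6V1C1 was at -0.019 and ATP6V1G1 at -0.0010 on the log2 scale, and ATP6V1G2 held 6 to 12 counts per library. ATP6V1H, the regulatory subunit that links V1 to V0, was at 27.1, 24.7 and 27.0 CPM with siALDOA and at 29.5, 29.5 and 31.9 CPM with siControl. It lay lower in every siALDOA library, by -0.20 on the log2 scale (95% interval -0.37 to -0.035, adjusted p = 0.123).

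**Figure D2:**
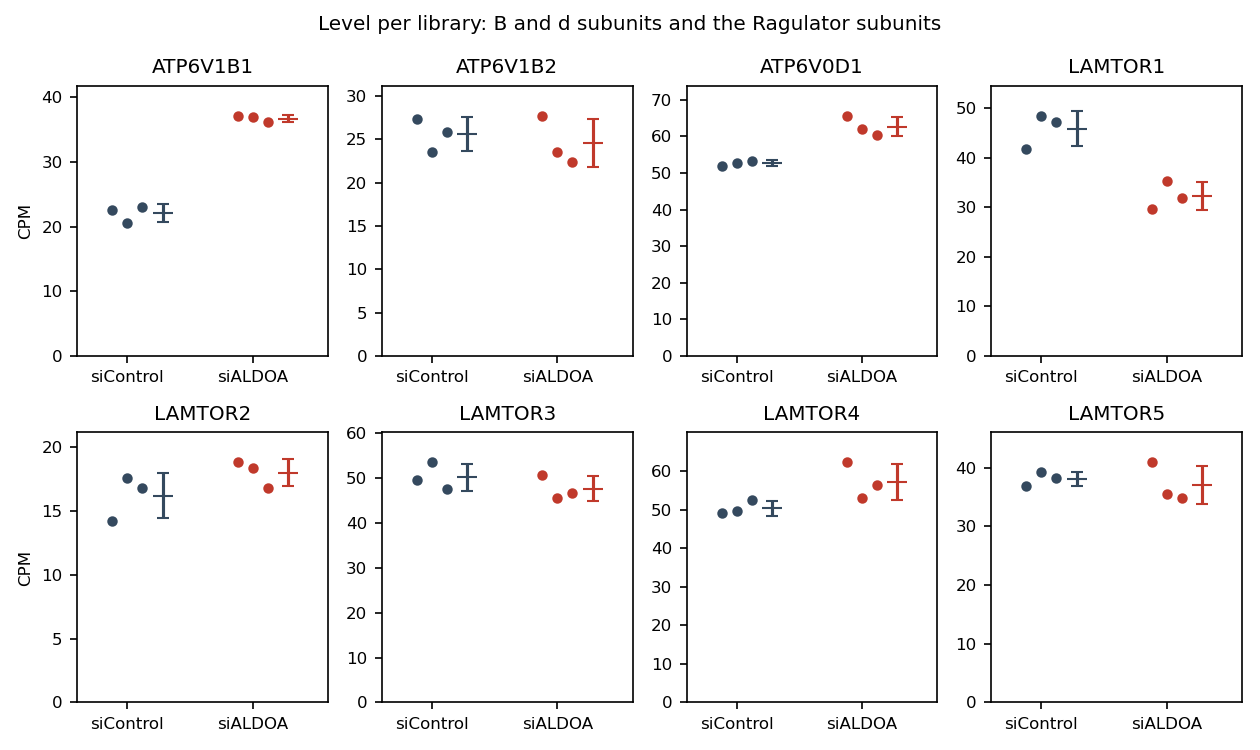
Level in CPM (y axis, from 0) of the B subunit isoforms, ATP6V0D1 and the 5 Ragulator subunits in each library; points are libraries in the order of their replicate number, and the bar beside them is the mean with its SD (n = 3). The groups part in ATP6V1B1, ATP6V0D1 and LAMTOR1 and also in LAMTOR4, and overlap in the other panels.

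The V0 sector had 7 tested members, of which 1 was called. ATP6V0D1 (ENSG00000159720, chromosome 16 of hg38, 67438014 to 67481181, minus strand) encodes the d subunit, which couples the rotor of V1 to the proteolipid ring. It was at 65.6, 62.1 and 60.5 CPM with siALDOA and at 51.8, 52.8 and 53.4 CPM with siControl. All siALDOA libraries were above all siControl libraries, with a mean of 62.7 ± 2.61 against 52.7 ± 0.802 CPM (SD, n = 3). It rose by 0.25 on the log2 scale (standard error 0.064, adjusted p = 0.0148), and it was called in 12 of 14 alternatives. Without siControl replicate 2 the adjusted p was 0.0601 and without siControl replicate 3 it was 0.0572. Its isoform ATP6V0D2, known from osteoclasts, held 0 counts with siALDOA and 2 counts in a single siControl library.

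The proteolipid ring subunit ATP6V0C had the highest level per length of the members with a transcript length, 158 ± 3.33 CPM per kb in siControl (SD, n = 3). It was at 129, 166 and 178 CPM with siALDOA and at 169, 173 and 176 CPM with siControl. The siALDOA replicate 1 library was low and the other two lay close to the siControl values. The log2 fold change was -0.13 (95% interval -0.30 to 0.043, adjusted p = 0.373), with -0.0047 without siALDOA replicate 1 and -0.23 without siALDOA replicate 3. ATP6V0B, the other ring subunit tested, had a log2 fold change of 0.055 (adjusted p = 0.672).

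The a subunit holds the proton channels and directs the pump to different membranes. ATP6V0A1 was at 43.6, 47.7 and 48.7 CPM with siALDOA and at 46.5, 49.0 and 47.5 CPM with siControl. These values overlapped, with a log2 fold change of -0.031 (adjusted p = 0.836) that changed sign, at 0.044, with scaling by library totals only and, at 0.015, without siALDOA replicate 1. ATP6V0A2, the isoform of the Golgi and endosomes, had a log2 fold change of -0.12 (adjusted p = 0.441). ATP6V0A4, the kidney isoform, held 1 count in all. TCIRG1, which encodes the a3 isoform of lysosomes and osteoclasts and has no ATP6 symbol, was at 99.7, 114 and 115 CPM with siALDOA and at 98.3, 97.4 and 94.4 CPM with siControl. Its groups did not overlap, and its log2 fold change was 0.18 (95% interval 0.046 to 0.31, adjusted p = 0.0855). Without siALDOA replicate 1 it was 0.24 and passed the threshold (adjusted p = 0.00755), while without siALDOA replicate 3 it was 0.14 (adjusted p = 0.269).

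The small e subunits were both on the higher side without passing the test. ATP6V0E1 was at 85.0, 77.7 and 85.1 CPM with siALDOA and at 76.9, 76.2 and 81.1 CPM with siControl, and these values overlapped (log2 fold change 0.080, adjusted p = 0.483). ATP6V0E2 was at 54.4, 58.7 and 54.2 CPM with siALDOA and at 45.8, 52.9 and 50 CPM with siControl. Its siALDOA libraries lay above siControl, by 0.17 on the log2 scale (adjusted p = 0.144), and 12.8% of its exon bases lie opposite ATP6V0E2-AS1, which held 431 counts.

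Among the accessory proteins, ATP6AP1, which is needed to assemble V0, was at 187, 200 and 217 CPM with siALDOA and at 191, 189 and 198 CPM with siControl. The siControl values lay inside the siALDOA range, and the log2 fold change was 0.063 (95% interval -0.064 to 0.19, adjusted p = 0.588). It was 0.0045 without siALDOA replicate 3 and 0.11 without siALDOA replicate 1. ATP6AP2, the prorenin receptor, had a log2 fold change of 0.024 (adjusted p = 0.881). ATP6AP1L, annotated as a pseudogene, held 20 to 39 counts per library and did not pass the test (adjusted p = 0.490).

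Summed over subunits, the sectors can be compared on the scale of CPM per kb of the main transcript. The V1 subunits together gave 330 ± 4.04 with siALDOA and 310 ± 4.0 with siControl (SD, n = 3). For the V0 subunits the sums were 355 ± 24.8 and 354 ± 5.86. The V0 means were nearly equal, and the wider siALDOA spread of V0 went with the low ATP6V0C value of replicate 1. The Ragulator sums were 226 ± 12.1 and 226 ± 9.81, and the Rag sums 53.3 ± 0.611 and 50.1 ± 0.954. These sums were described and not tested.

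**Figure D3:**
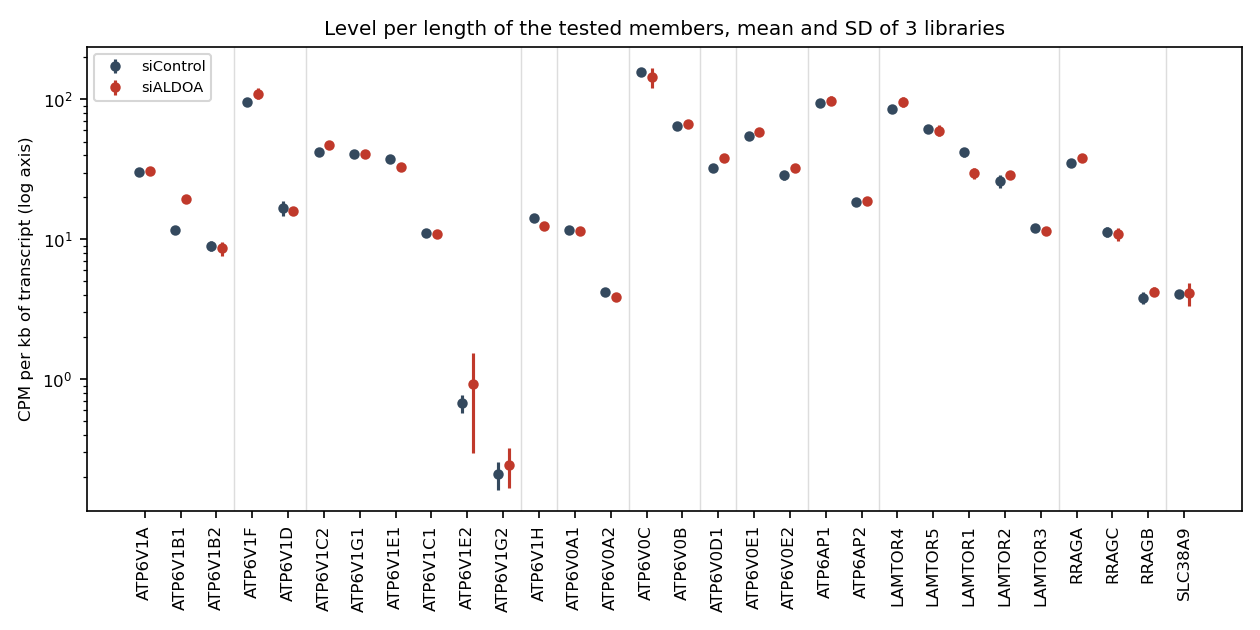
Level per length in CPM per kb of the main transcript (log axis) for tested members with a role and a transcript length, as the mean of 3 libraries with its SD, siControl in dark blue and siALDOA in red; grey lines part the roles. Levels range from ATP6V1G2 and ATP6V1E2 below 1 to ATP6V0C at 158 in siControl, and ATP6V1B1 and LAMTOR1 show the clearest gaps between the groups.

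Ragulator had 5 tested members, of which 1 was called. LAMTOR1 (ENSG00000149357, chromosome 11 of hg38, 72085895 to 72103297, minus strand) encodes the lipid-anchored subunit that wraps around the others and fixes them to the lysosome. It was at 29.6, 35.2 and 31.9 CPM with siALDOA and at 41.8, 48.4 and 47.2 CPM with siControl. Every siALDOA library lay below every siControl library, with 825 to 1058 counts against 1303 to 1557. The log2 fold change was -0.51 (standard error 0.081, adjusted p = 0.000301), from 45.8 ± 3.53 to 32.3 ± 2.79 CPM (SD, n = 3). It stayed between -0.57 and -0.43 and called in all 14 alternatives, and no other gene's exons overlap those of LAMTOR1 in the annotation.

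The other subunits form roadblock pairs, LAMTOR2 with LAMTOR3 and LAMTOR4 with LAMTOR5, and none of them was called. LAMTOR4 was at 62.2, 52.9 and 56.3 CPM with siALDOA and at 49.0, 49.5 and 52.5 CPM with siControl. The groups did not overlap, though by little, and the log2 fold change of 0.18 (95% interval 0.034 to 0.33) had an adjusted p of 0.118. LAMTOR2 was at 18.8, 18.4 and 16.8 CPM with siALDOA and at 14.2, 17.6 and 16.8 CPM with siControl, and these values overlapped (log2 fold change 0.15, adjusted p = 0.409). LAMTOR3 changed by -0.075 on the log2 scale (adjusted p = 0.582) and LAMTOR5 by -0.038 (adjusted p = 0.820).

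LAMTOR1 took 14.7%, 18.7% and 17.1% of the counts on the 5 Ragulator genes with siALDOA and 21.8%, 23.2% and 23.3% with siControl. Its share was lower in 3 of 3 siALDOA libraries, at 16.8% ± 2.06 against 22.8% ± 0.845 (SD, n = 3). The exact two-sided permutation test gave p = 0.1, again the smallest possible, and 0.233 after adjustment over the 7 shares. The exact 95% binomial interval of the highest siALDOA share, 17.7% to 19.8%, did not reach that of the lowest siControl share, 20.8% to 22.9%, and covers counting error only. Of the Ragulator subunits only LAMTOR1 was given a share. It rests on the counts behind the call of LAMTOR1, so it is no separate evidence of the fall.

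**Figure D4:**
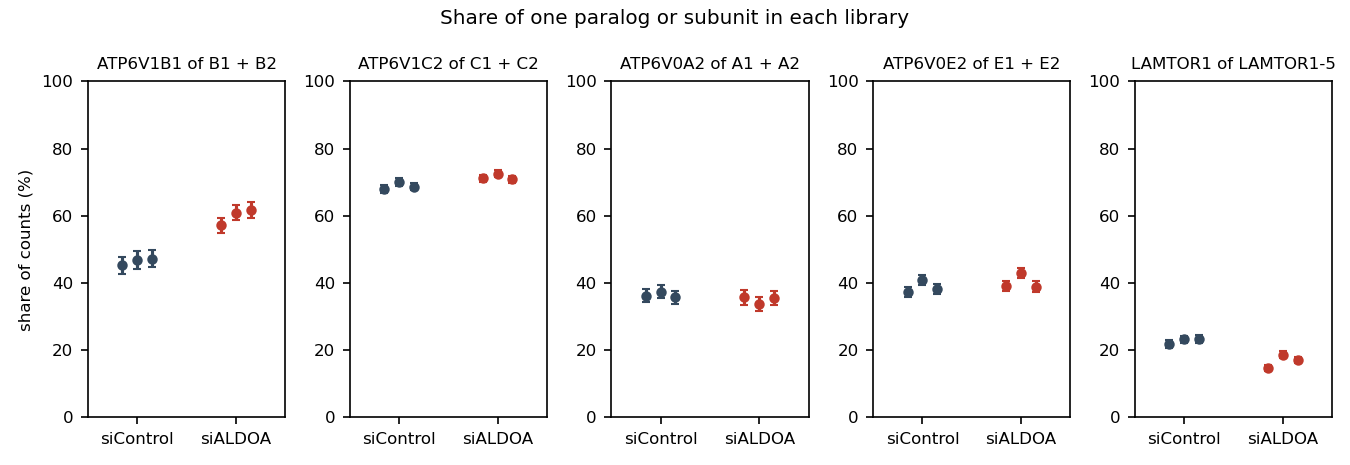
Share of counts (%, y axis from 0 to 100) of one paralog within its pair, or of LAMTOR1 within the 5 Ragulator genes, in each library with its exact 95% binomial interval. ATP6V1B1 is above 57% in the siALDOA libraries and below 48% in the siControl libraries, LAMTOR1 is lower with siALDOA, and the other shares lie close together.

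The shares of the remaining pairs moved less. ATP6V1C2 took 71.6% ± 0.922 of the C subunit counts with siALDOA and 68.9% ± 1.12 with siControl, without overlap (exact permutation p = 0.1, 0.233 after adjustment). ATP6V0E2 took 40.3% ± 2.35 and 38.8% ± 1.92 of the e subunit counts, and ATP6V0A2 took 35.1% ± 1.1 and 36.4% ± 0.877 of the counts on ATP6V0A1 and ATP6V0A2 (SD, n = 3 each). Both differences were within the overlap of the libraries, with an adjusted exact permutation p of 0.7 and 0.35. RRAGB took 12.4% ± 0.773 and 12.3% ± 0.922 of the counts on RRAGA and RRAGB, and ATP6V1E2 took 3.31% ± 2.34 and 2.11% ± 0.427 of the E subunit counts.

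The Rag GTPases act as heterodimers of RagA or RagB with RagC or RagD, and none of the 3 tested Rag genes was called. RRAGA was at 58.6, 63.0 and 61.7 CPM with siALDOA and at 55.1, 56.3 and 56.1 CPM with siControl. All siALDOA values lay above siControl, but the log2 fold change of 0.13 (95% interval -0.0013 to 0.26) did not pass the test (adjusted p = 0.217). RRAGB stood at 0.14 on the log2 scale (adjusted p = 0.582) and RRAGC at -0.062 (adjusted p = 0.742). RRAGD was listed at 0 in every library. Since 7308 of the 28278 genes were listed at 0 throughout, among them EEF1B2 and FBL, which growing cells use, and the ribosomal protein gene RPL7A, all chosen after their values were seen, nothing about the presence of RRAGD can be read from this. SLC38A9, the lysosomal transporter that senses arginine for the Rag GTPases, was at 12.5, 9.18 and 9.29 CPM with siALDOA and at 10.4, 9.50 and 10.8 CPM with siControl. Replicate 1 of siALDOA was the highest library and the other two the lowest, so that the log2 fold change of 0.0099 (95% interval -0.27 to 0.29, adjusted p = 0.973) became -0.15 without it.

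The 5 symbols that share only the prefix were read with more caution. ATP6V1FNB, a neighbour of ATP6V1F, held 51, 38 and 63 counts after siALDOA and 94, 81 and 74 after siControl. Its groups did not overlap, and its log2 fold change was -0.58 (standard error 0.27, adjusted p = 0.196), with 48.9% of its exon bases opposite KCP. Without siALDOA replicate 2 the value was -0.38 and without siALDOA replicate 3 it was -0.77. ATP6V1G2-DDX39B, a readthrough symbol, had 30349 counts in all and a log2 fold change of 0.14 (adjusted p = 0.131). It shares 87.6% of its exon bases with DDX39B, which stood at 0.15, so its counts cannot be told apart from those of that gene. ATP6V0E2-AS1 had a log2 fold change of 0.15 (adjusted p = 0.761), and 26.3% of its exon bases lie opposite ATP6V0E2, which held 9517 counts against 431, so that their reads cannot be told apart there. The antisense symbol ATP6V1B1-AS1 held 3 to 22 counts per library, and the pseudogene ATP6V0CP3 was listed at 0. Of the members with a role, ATP6V1G3, the kidney isoform of the G subunit, was likewise listed at 0.

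Promoter windows of 300 bases from RefSeq were at hand for 28 of the 40 members. The others, ATP6V1A, ATP6V1H and RRAGA among them, were not searched. The E-box CACGTG was present, on both strands at once since it is its own reverse complement, in 8 of these 28 genes (28.6%) and in 8.77% of the 27305 genes with a window. The longer word TCACGTG, searched on both strands and containing the E-box, was in the same 8 genes and in 4.49% of all genes. The CLEAR palindrome, which contains both, was in ATP6V1G1 and RRAGB and in 0.421% of all genes. The 8 genes are ATP6V0B, ATP6V0D1, ATP6V0E2, ATP6V1G1, LAMTOR1, LAMTOR4, RRAGB and RRAGC, so that the group holds V0, V1, Ragulator and Rag genes. As no set was tested, these shares are a description of the sequences.

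The 8 genes with an E-box did not share a direction. Of them 5 were higher and 3 lower with siALDOA, with ATP6V0D1 called higher and LAMTOR1 called lower, and their log2 fold changes ran from -0.51 to 0.25 with a median of 0.098. Among the other 20 genes with a window, 17 were tested, 10 were higher and 7 lower, ATP6V1B1 was called, and the median was 0.024. Over all genes tested 9.64% were called, and these few calls allow no comparison of genes with and without an E-box. Of the factors that bind the word, TFEB and TFE3 were tested and neither was called. TFEB was at 16.1, 20.8 and 22.9 CPM with siALDOA and at 22.5, 22.5 and 20.4 CPM with siControl, which overlap (log2 fold change -0.13, adjusted p = 0.515). Without siALDOA replicate 1 the TFEB value was -0.0012 and without siALDOA replicate 3 it was -0.25. TFE3 was at 52.6, 56.1 and 56.3 CPM with siALDOA and at 61.1, 59.3 and 60.3 CPM with siControl. It lay lower in every siALDOA library (log2 fold change -0.13, 95% interval -0.26 to 0.0021, adjusted p = 0.220). MITF and TFEC did not pass the filter on low counts.

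The genes that work with these complexes were taken from lists of assembly factors, nutrient sensors and lysosomal proteins. Of 84 listed genes 80 were tested, 7 were called higher and 2 lower, or 11.2% beside 9.64% of all genes, and their median log2 fold change was 0.059. Without siControl replicate 2 the counts were 4 and 2. None of the 4 assembly factors tested was called.

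Among the genes that load V1 onto V0, DMXL2, a subunit of the RAVE complex, was at 126, 122 and 113 CPM with siALDOA and at 103, 98.1 and 99.7 CPM with siControl. It was higher without overlap, by 0.26 on the log2 scale (standard error 0.061, adjusted p = 0.00713). Without siControl replicate 2 the adjusted p was 0.0505. The other 3 RAVE genes were also on the higher side but were not called. TLDC2, of the TLDc family of v-ATPase regulators, was at 31.2, 37.1 and 31.0 CPM with siALDOA and at 13.3, 14.2 and 14.5 CPM with siControl. The gap between the groups was 1.24 on the log2 scale (standard error 0.095, adjusted p = 1.19e-08). However, 41.8% of its exon bases lie opposite SAMHD1, an interferon-induced gene with 33858 counts that itself rose by 1.19, and without a stated strand setting the reads of TLDC2 and SAMHD1 cannot be told apart. The other 4 TLDc genes had log2 fold changes from -0.18 to 0.058 and none was called.

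**Figure D5:**
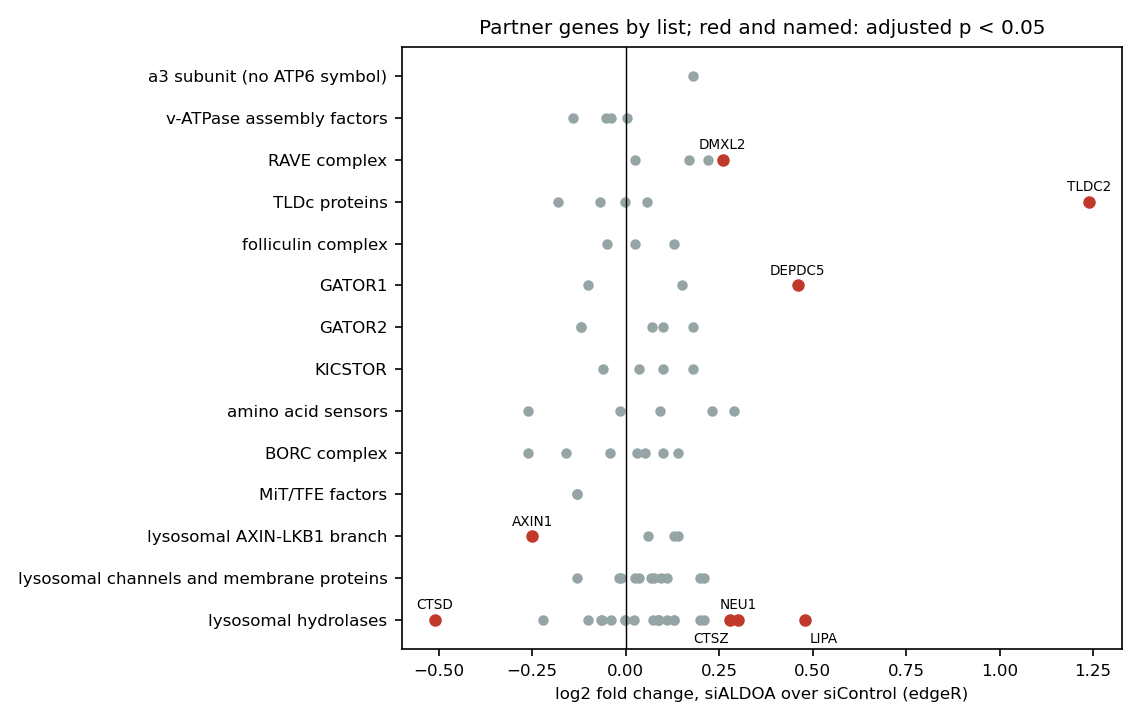
Log2 fold change (x axis, siALDOA over siControl, edgeR) of the tested partner genes, 1 gene left out, with 1 row per list; each point is a gene and those in red, with their symbols, passed an adjusted p of 0.05. The 8 called genes shown are spread over 5 lists, 4 of them lysosomal hydrolases, and TLDC2 stands apart at 1.24.

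Upstream of the Rag GTPases, DEPDC5, a subunit of GATOR1, the complex that acts as GTPase activator for RagA and RagB, was at 13.2, 11.6 and 12.4 CPM with siALDOA and at 8.05, 9.27 and 9.77 CPM with siControl. It was higher without overlap, by 0.46 on the log2 scale (standard error 0.12, adjusted p = 0.0170). The call was lost without siALDOA replicate 1 (adjusted p = 0.0516), without siControl replicate 1 (0.0726) and without siControl replicate 2 (0.0502). The other GATOR1 genes, NPRL2 and NPRL3, and all tested genes of GATOR2, KICSTOR, the amino acid sensors and the folliculin complex were not called. FLCN, the GTPase activator for RagC and RagD, was at 24.6, 26.7 and 24.0 CPM with siALDOA and at 26.1, 24.0 and 23.9 CPM with siControl, which overlap (log2 fold change 0.024, adjusted p = 0.901).

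In the AXIN and LKB1 branch, AXIN1, the scaffold that brings LKB1 to the v-ATPase, was at 66.2, 61.9 and 67.5 CPM with siALDOA and at 78.6, 74.3 and 80.4 CPM with siControl. All siALDOA values were below siControl, and the log2 fold change was -0.25 (standard error 0.064, adjusted p = 0.0132). With library totals only it was -0.18 (adjusted p = 0.201), and the call was also lost without siALDOA replicate 2 (adjusted p = 0.0810) and without siControl replicate 3 (0.0890). STK11, which encodes LKB1, was at 68.3, 65.9 and 72.1 CPM with siALDOA and at 61.0, 63.4 and 64.0 CPM with siControl. Its groups did not overlap, and the log2 fold change of 0.13 (95% interval -0.0024 to 0.26) was not called (adjusted p = 0.221).

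Lysosomal hydrolases work at the low pH that the pump maintains. Of the 22 genes on their list, 4 were called higher and 1 lower, or 22.7% beside 9.64% of all genes tested, with no test of the list. The list also holds NPC2 and PSAP, which are not themselves hydrolases and were not called. CTSD, the aspartic protease cathepsin D, was at 369, 400.0 and 432 CPM with siALDOA and at 569, 556 and 584 CPM with siControl. It fell without overlap and changed by -0.51 on the log2 scale (standard error 0.061, adjusted p = 8.11e-06). LIPA, the acid lipase, was at 91.2, 89.9 and 93.1 CPM with siALDOA and at 65.6, 65.6 and 65.7 CPM with siControl. It rose by 0.48 (standard error 0.059, adjusted p = 1.33e-05), and IFIT2 and IFIT3, both with a log2 fold change of 1.57, lie opposite 1.33% and 1.92% of its exon bases.

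CTSZ, a cysteine protease, rose by 0.28 (adjusted p = 0.00272), with 31.7% of its exon bases opposite NELFCD, whose log2 fold change was -0.040. NEU1, a sialidase, rose by 0.30 (adjusted p = 0.0211). In CTSZ the siALDOA libraries all lay above siControl, while in NEU1 the groups overlapped. None of the 11 lysosomal channels and membrane proteins, LAMP1, LAMP2 and CD63 among them, was called, and their median log2 fold change was 0.067.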

How the data were processed

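RNA of HT29 cells was sequenced as paired-end reads in 3 siALDOA and 3 siControl libraries. Alignment to hg38 was done by the authors with tophat2 and counting with gfold. The deposited files hold raw counts per gene symbol, 1 library each, without normalization. How the counting treated strand and reads with several matches, and its annotation, are not given in the sources used here. Totals ranged from 27277538 to 33237914 counts, and intervals on shares cover counting error only.

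Counts were tested in R 4.3.3 with edgeR 4.0.16 (filterByExpr, TMM, quasi-likelihood F-test, no covariate) over all 15307 genes that passed, with Benjamini-Hochberg adjustment and a threshold of 0.05. The study names limma and edgeR with an unadjusted threshold of 0.01, whose counts are given as well. The standard error was taken as log2 fold change over the root of the F statistic. Shares of paralogs were compared with exact two-sided permutation tests in scipy 1.17.1. Lengths, coordinates and exon overlaps came from GENCODE release 44 on hg38, lengths from the MANE transcript, and promoters from RefSeq on GRCh38.p14. The code was tested on simulated counts with 200 changed genes. Alternatives were library totals only, upper quartile normalization, DESeq2 1.42.0, limma-voom (limma 3.58.1), a likelihood ratio test in edgeR, a block on the replicate number, all genes without a filter, a minimum of 10 counts per library, and 6 fits that each lacked 1 library. Figures were drawn with matplotlib 3.10.9.

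The members, the lists and the alternatives were chosen with earlier results of these data known. Genes were named by a rule that took the called members, the next 5 by p, the highest level per length in each role, the called partner genes up to 4 in each list (1 of them is counted but not reported here), and TCIRG1, TFEB, TFE3, FLCN and STK11. Other genes were named after their values were seen, to complete a role or a list.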

Additional observations from a re-analysis of the deposited data

How the results depend on the processing

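ATP6V1B1 and LAMTOR1 were called in all 14 alternatives and ATP6V0D1 in 12 of 14. The members called higher, 2 as reported, ranged from 1 to 3 over the fits that each lacked 1 library, with 1 without siControl replicate 2 and 1 without siControl replicate 3, while the 1 member called lower was called in each of these fits. The partner genes called higher, 7 as reported, ranged from 4 to 10 and those called lower, 2 as reported, from 1 to 3, with 1 without siControl replicate 3. Partner genes called lower numbered 1 with library totals only, 4 with the likelihood ratio test and 4 with no filter on low counts. ATP6V1C2 passed with DESeq2 (adjusted p = 0.0390) and ATP6V1F with library totals only (0.0483). With the replicate number as a block, 4 members were called higher and 2 lower, as ATP6V1C2, ATP6V1F and ATP6V1E1 were added, and 12 partner genes were called higher and 4 lower, TCIRG1 among them. Calls rose over all genes as well. Of the 15307 tested, the block called 987 higher and 1175 lower, against 666 and 810 without it. Same-numbered libraries deviated together with correlations of 0.0348, 0.0274 and 0.0262, under the 0.1 set for pairing. Each library correlated best with its own number, but siALDOA replicate 2 did nearly as well with siControl replicate 3 (0.0215). Correlations this small do not establish a pairing, and the labels state none.

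The log2 fold change changed sign for ATP6V0A1 with library totals only (0.044) and without siALDOA replicate 1 (0.015, with fits lacking 1 library from -0.063 to 0.015), for ATP6V1A without siALDOA replicate 1 (from -0.017 to 0.049) and for FLCN without siALDOA replicate 2 (from -0.024 to 0.065). That of SLC38A9 did so with limma-voom (-0.0075), without siALDOA replicate 1 (-0.15) and without siControl replicate 2 (-0.043), with a highest value of 0.088 without siALDOA replicate 2. None of these genes was called, and the cause was not tested. Over all genes, 666 were called higher and 810 lower, against 895 and 279 with library totals only, a scaling that moved the median log2 fold change from 0.0016 to 0.075. The counts were 987 and 1175 with the block, 359 and 490 without siControl replicate 2 and 363 and 471 without siControl replicate 3. Members under about 1 CPM rest on few counts per library, and their intervals allow changes of either sign.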
